A study of Mus musculus with 12 samples.

Results

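In forelimb buds of mouse embryos whose mothers were injected with the DMSO vehicle, 2726 of the 16238 deposited consensus β-catenin summits lay inside the body of a protein-coding gene, at least 10 kb and less than 100 kb from the nearest transcriptional start site (TSS), and outside every consensus H3K27ac peak. They made up 16.8% of the 16189 summits on chromosomes 1 to 19 and X, and are called intragenic unmarked summits here. They were chosen by their position and by the peak calls of the DMSO β-catenin and of the DMSO and C59 H3K27ac libraries, so that their presence in the first and absence from the second are not findings. The libraries came from pooled forelimb buds of wild-type Swiss Albino embryos, whose mothers were injected with C59 or DMSO at E10.5 and which were dissected 6 h later, and all groups shared this genotype, stage and tissue. β-Catenin and H3K27ac ChIP-seq were each done with 2 replicates per treatment. The buds hold mesenchyme, ectoderm, muscle precursors and vessels, whose chromatin cannot be told apart in these libraries.

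β-Catenin does not bind DNA itself. After a WNT ligand has engaged its receptors, it enters the nucleus and is held on chromatin mainly by transcription factors of the TCF/LEF family, which recognise a short sequence ending in TCAAAG. Acetylation of H3K27 marks the nucleosomes that flank active enhancers and promoters, and enhancers often lie in the introns of the gene they control or of a neighbour. C59 inhibits porcupine, the enzyme that adds the lipid that WNT ligands need for secretion.

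Examples of the bound sequences are given first, because the TCF/LEF sequence was not used to choose the summits. The core was taken as ATCAAAG or TTCAAAG on either strand, which reads CTTTGAT or CTTTGAA on the printed strand when it lies on the other one. Each of the following stretches is on the forward strand of mm10 (GRCm38), lies in an intron of the gene named and outside annotated exons, and shows the cores in capitals.
Glis1, chr4:107460689-107460778: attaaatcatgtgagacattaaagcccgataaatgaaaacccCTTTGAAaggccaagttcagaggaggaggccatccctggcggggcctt
Thsd7a, chr6:12358775-12358864: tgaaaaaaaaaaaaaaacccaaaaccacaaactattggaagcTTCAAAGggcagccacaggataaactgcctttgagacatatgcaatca
Dkk2, chr3:132122771-132122860: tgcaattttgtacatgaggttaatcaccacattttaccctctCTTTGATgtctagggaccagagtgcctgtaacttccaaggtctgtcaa
Zfhx3, chr8:107960769-107960858: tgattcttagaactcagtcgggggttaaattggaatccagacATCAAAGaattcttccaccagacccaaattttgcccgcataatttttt
Dtnb, chr12:3670250-3670339: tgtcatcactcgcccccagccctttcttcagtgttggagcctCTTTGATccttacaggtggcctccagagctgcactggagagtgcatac
Stk39, chr2:68404880-68404969: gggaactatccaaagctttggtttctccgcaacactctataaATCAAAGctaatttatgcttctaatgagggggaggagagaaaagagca
Ext2, chr2:93746251-93746340: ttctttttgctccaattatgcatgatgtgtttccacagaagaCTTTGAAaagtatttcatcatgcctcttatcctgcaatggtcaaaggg
Lef1, chr3:131196779-131196868: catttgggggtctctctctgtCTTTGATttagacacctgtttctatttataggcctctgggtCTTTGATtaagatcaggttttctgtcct
Znrf3, chr11:5415712-5415801: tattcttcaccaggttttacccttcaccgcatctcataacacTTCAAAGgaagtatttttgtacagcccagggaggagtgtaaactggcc
Wif1, chr10:121062984-121063073: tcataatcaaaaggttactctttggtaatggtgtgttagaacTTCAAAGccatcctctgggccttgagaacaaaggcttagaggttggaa
The first 5 are the intragenic unmarked summits with a core among the 10 of highest fold enrichment, save 1 whose sequence is not printed. Stk39 is the one with a core whose C59 fold enrichment was highest, Ext2 the one of highest fold enrichment among those with 3 cores that could be shown, and Lef1, Znrf3 and Wif1 are the next by fold enrichment among summits with a core in WNT pathway genes. The core was centred on the summit base itself at Dkk2, 1 bp from it at Ext2 and 75 bp from it at Thsd7a. The other 2 cores of Ext2 and the other core of Dkk2 fell outside the stretch shown. The 3 summits of highest fold enrichment without a core are shown for comparison, with CATAAA or CTCATTA in capitals, which are described with the other sequences.
Pik3ap1, chr19:41301964-41302053: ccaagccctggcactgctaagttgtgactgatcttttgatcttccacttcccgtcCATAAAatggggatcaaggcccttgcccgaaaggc
Jazf1, chr6:52967767-52967856: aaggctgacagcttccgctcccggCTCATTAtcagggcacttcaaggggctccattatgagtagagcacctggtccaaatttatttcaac
Iqca, chr1:90119362-90119451: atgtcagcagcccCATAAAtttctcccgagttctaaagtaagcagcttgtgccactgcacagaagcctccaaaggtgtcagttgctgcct

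Libraries were of similar depth within each antibody. The fold enrichment and p of each peak gave the number of fragments over its summit and the number expected there, and the lowest expected coverage put the β-catenin libraries at 2.93 and 3.39 Gb of fragments with DMSO and at 3.42 and 3.40 Gb with C59. The H3K27ac libraries held 5.03 to 5.93 Gb. H3K27ac summits were called within 1 kb of a TSS of the forelimb gene Tbx5 and of the limb mesenchyme genes Prrx1, Hand2 and Lmx1b in each of the 4 H3K27ac libraries. The hindlimb gene Pitx1 had none, whereas the hindlimb gene Tbx4 had 2 in the DMSO consensus list and 1 in the C59 list. In the DMSO consensus list the highest fold enrichment was 4.44 at Tbx4. It was 2.22 at Tbx5, 2.45 at Prrx1, 3.14 at Lmx1b and 4.49 at Hand2. These calls alone therefore do not show the limb type.

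All 2726 intragenic unmarked summits lay inside a peak in both DMSO replicates, as the consensus list requires. Their median fold enrichment was 7.01 in the pooled list, with quartiles of 5.52 and 9.37 and a range of 2.94 to 29.7. In replicate 1 a median of 17 fragments covered the summit against 1.93 expected, with a range of 8 to 205. In replicate 2 it was 20 fragments against 2.195 expected, with a range of 8 to 236. Both libraries had the same lowest value. The median fold enrichment was 6.20 in replicate 1 and 6.38 in replicate 2, and 1462 summits had the higher value in replicate 2 and 1264 in replicate 1. Fold enrichments of the replicates lay within 1.5 times of each other at 88.0% of the summits (Pearson's r of the log2 values 0.79, Spearman's rho 0.73 over 2726 summits, which share both libraries and were selected for a call in both). The median log2 ratio of replicate 2 over replicate 1 was 0.03, with an SD of 0.37 across summits. A value in a replicate is that of the replicate's nearest summit in the peak, which was a median of 12 bp away in both replicates and over 100 bp away at 138 summits in replicate 1 and 119 in replicate 2. The farthest point from the line of equal counts was such a case, a summit in Tiam1 with 132 fragments in replicate 1 and 20 in replicate 2, where the peak of replicate 1 held a single summit, nearer to a second, stronger consensus summit of the same region.

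**Figure D1:**
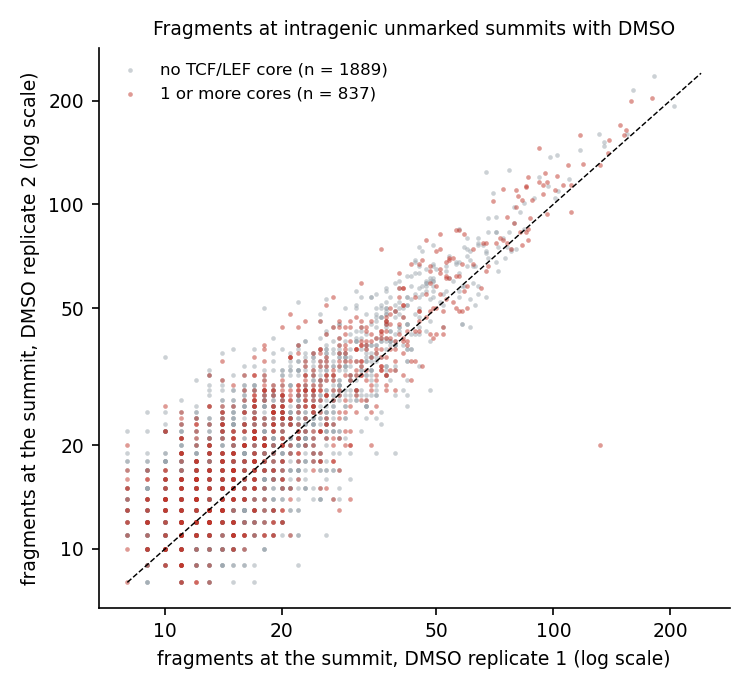
Fragments over each of the 2726 intragenic unmarked summits in DMSO replicate 1 (horizontal, log scale) and replicate 2 (vertical, log scale), each point 1 summit, with the dashed line marking equal counts. Summits with a TCF/LEF core (837) and without one (1889) spread around that line from 8 fragments to over 200, with the summit in Tiam1 (132 and 20) far below it.

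The summit just inside the 10 kb limit lay in Lnx1 at 10000 bp from a TSS with a fold enrichment of 5.75, and the one just outside it in Auts2 at 9997 bp with 4.28. At the other limit, a summit in Nrxn3 at 99808 bp with a fold enrichment of 15.3 was inside and one in Lrmda at 100772 bp with 10.4 was outside. The median distance from a TSS was 28.3 kb, with 865 summits at 10 to 20 kb, 1225 at 20 to 50 kb and 636 at 50 to 100 kb.

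Of the 2726 summits, 2655 (97.4%) were intronic in protein-coding genes, 71 lay in an exon of such a gene, and 44 of these in an annotated untranslated region. The list of DMSO replicate 2 alone gave 4310 such summits and that of replicate 1 alone 3348. The 2726 formed 2575 peak regions and 2302 loci when summits up to 10 kb apart were joined. A single summit made up 1959 loci, 277 held 2, and 66 held 3 or more. The summits fell in 1285 genes, which is 13.9% of the 9246 protein-coding genes with any sequence that meets the distance and H3K27ac limits. Of these hosts, 323 held 3 or more summits and 133 held 5 or more. With each gene body cut into 10 equal parts, the first part from the 5′ end held 5.32% of the summits and 5.75% of the sequence open to the rule, and the sixth part held 11.3% of the summits and 10.7% of that sequence. Gene bodies held 5.74 such summits per Mb of this open sequence over 474.8 Mb, and intergenic DNA 4.74 per Mb over 798.4 Mb, counting the 3785 unmarked summits at the same TSS distances outside all genes. The ratio was 1.21 (95% interval 1.15 to 1.27). Soft-masked repeats made up 28.8% of the open intragenic and 40.2% of the open intergenic sequence, whereas the 200 bp windows at the summits held a mean of 8.15% and 8.63%, and the part of repeats in the ratio was not tested. All intervals here cover counting error over summits, which are not replicates.

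The share of genes with a summit followed their length. Genes with up to 20 kb of open sequence held one in 1.56% of cases, those with 100 to 200 kb in 47.4%, and those with more in 73.0%, and the density in these classes was 2.04, 6.54 and 6.96 per Mb. The 10 genes with most summits were long ones. Lrmda, which takes part in melanocyte differentiation, held 34 summits over 765 kb of open sequence, a density of 4.44 per 100 kb, and 6 of them had a TCF/LEF core. Hdac9, a class IIa histone deacetylase whose introns are known to hold limb enhancers of Twist1, held 18 at 3.33 per 100 kb. Macrod2, a hydrolase of ADP-ribose marks, held 15 at 1.06 per 100 kb, 8 with a core. Tenm4, a teneurin of the cell surface, and Pard3b, a cell polarity gene, held 13 each. Kif26b, a kinesin of the non-canonical WNT5A and ROR pathway, and the genes Lrba, Gmds, Auts2 and Ntm held 12 each, as did Cntn5 at a lower density. None of the 12 summits in Kif26b or of the 12 in Auts2 had a core, against 30.7% of all intragenic unmarked summits. The strongest summit of Lrmda (chr14, position 22048987) had 103 and 109 fragments in the 2 replicates, that of Hdac9 (chr12, 34200186) 158 and 200, and that of Gmds (chr13, 32055437) 138 and 141.

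The 10 strongest summits had fold enrichments of 24.3 to 29.7 and at least 92 fragments in each DMSO library, and 6 of them had a core. The strongest lay in Pik3ap1, which encodes an adaptor of PI3 kinase, 38.0 kb from a TSS, with 205 fragments against 6.38 expected in replicate 1 and 193 against 6.17 in replicate 2. It held no core in 200 bp. The second lay in Zbtb7c, a zinc finger gene, with 92 and 146 fragments and 3 cores. The third lay in Glis1, a Krüppel-like zinc finger gene, with 179 and 204 fragments, and the fourth in Thsd7a, a thrombospondin-domain gene, with 106 and 114. Dkk2 encodes a secreted antagonist of the WNT co-receptors, and its summit had 111 and 114 fragments. Jazf1 and Zfhx3, both zinc finger genes, followed with 182 and 236 and with 139 and 154 fragments, but their summits lay only 192 bp and 51 bp from an H3K27ac peak. The summit in Dtnb had 96 and 94 fragments, that in Iqca 135 and 148, and that in Fmn1 101 and 104. Fmn1 encodes a formin, and its introns are known to hold limb enhancers of the neighbouring BMP antagonist gene Grem1. In each of these 10, both replicates lay far above the median of 17 and 20 fragments.

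A TCF/LEF core lay within the 200 bp window of 837 intragenic unmarked summits (30.7%, 95% Wilson interval 29.0 to 32.5%), against 28.6% of all summits. In windows of the same length 2 kb to either side it was present in 504 of 5452 (9.24%, 8.50 to 10.04%), a difference of 21.5 percentage points (19.6 to 23.4). Of the 837, 718 had 1 core, 110 had 2 and 9 had 3. Of the 965 cores, 42.6% were centred within 25 bp of the summit and 71.6% within 50 bp. ATCAAAG made up 51.5% of the cores at summits and 41.7% of those in the flanking windows. Read in the direction of ATCAAAG, the base before the core was C at 37.5% and G at 30.6% of the cores at summits, against 28.6% and 19.05% in the flanking windows, and the base after it was G at 34.4% and C at 30.1% against 21.3% and 23.8%. In genes with 1 host, 44.3% of the cores (41.2 to 47.5%) lay on the strand of the gene, and so did 42.7% (38.5 to 47.0%) in the flanking windows, so that the strand bias was not particular to the summits.

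**Figure D2:**
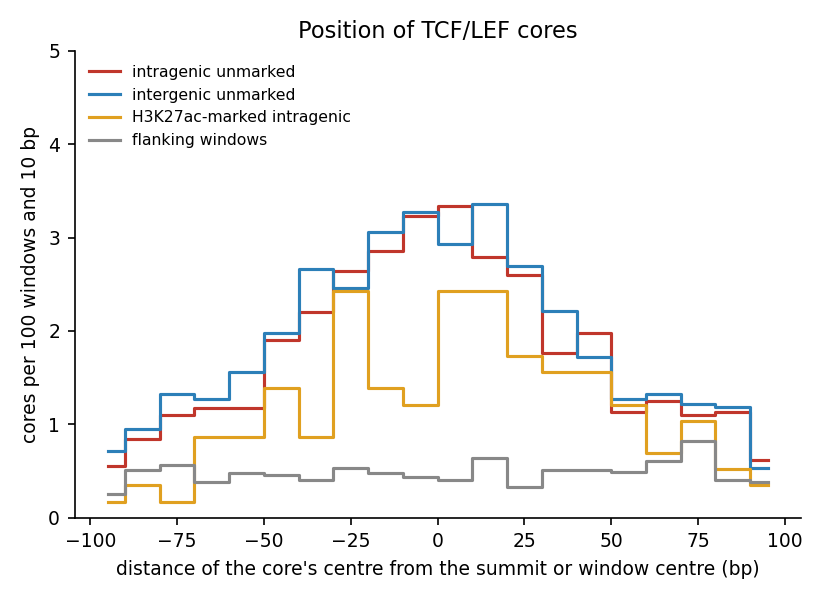
Cores per 100 windows in each 10 bp (vertical) by the distance of the core's centre from the summit, or from the window centre for the flanking windows (horizontal, bp), for intragenic unmarked, intergenic unmarked and H3K27ac-marked intragenic summits and for the flanking windows. Intragenic and intergenic unmarked summits peak at 3.34 and 3.36 near the summit, whereas the flanking windows stay at or below 0.825.

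The core was about as frequent at unmarked summits outside genes. Of the 3785 intergenic unmarked summits, 32.4% had a core (30.9 to 33.9%), and the difference of −1.66 percentage points included zero (−3.94 to 0.63). H3K27ac-marked summits at the same distance from a TSS inside genes had a core in 118 of 577 cases (20.5%, 17.4 to 23.9%), and the intragenic unmarked summits lay 10.3 percentage points above them (6.38 to 13.8). This difference was 10.4 points (6.69 to 14.1) when the shares were standardised to the same classes of fold enrichment. The median fold enrichment was similar, at 7.01, 7.13 and 7.16 in the intragenic unmarked, intergenic unmarked and marked summits. The median GC content of the window was 43.5% in both unmarked classes and 49.0% in the marked one, and the part of base composition was not tested.

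Among intragenic unmarked summits the share with a core was higher where the fold enrichment was higher, from 21.1% (17.4 to 25.2%) of 418 summits below a fold of 5 to 50.3% (42.5 to 58.1%) of 155 summits at a fold of 15 and above. The intergenic summits went from 24.8% to 53.2% over the same classes, and the marked ones from 9.80% to 11 of 44 summits in the last class (interval 14.6 to 39.4%). By distance from a TSS the share was 32.9% at 10 to 20 kb, 30.1% at 20 to 50 kb and 28.8% at 50 to 100 kb, with intervals that overlapped. The intragenic unmarked summits were not uniform in their distance from H3K27ac. The median distance to the nearest H3K27ac peak was 34.2 kb, 1139 summits (41.8%) lay over 50 kb from one, and 392 (14.4%) lay within 1 kb. Of the latter, 83 had a core (21.2%, 17.4 to 25.5%), against 754 of the 2334 farther away (32.3%), a difference of −11.1 percentage points (−15.4 to −6.43), although their median fold enrichment was 7.79 against 6.88. This was not particular to summits inside genes. Intergenic unmarked summits had a core in 79 of 421 cases (18.8%, 15.3 to 22.8%) within 1 kb of an H3K27ac peak. At 1 to 10 kb, 10 to 50 kb and over 50 kb their shares were 31.4%, 33.6% and 34.8%.

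**Figure D3:**
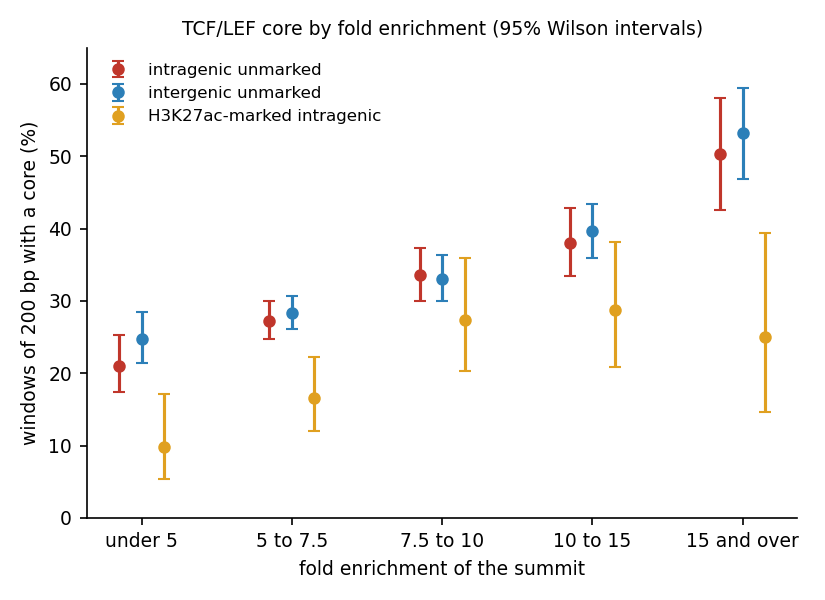
Share of 200 bp windows with a TCF/LEF core (vertical, %) by class of fold enrichment (horizontal) for the 3 kinds of distal summits, with 95% Wilson intervals as bars. The 2 unmarked kinds overlap in every class, and the intervals of the marked summits lie below both below a fold of 7.5 and at 15 and above.

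Other short sequences were also more frequent at the summits than in the flanking windows, in searches of both strands chosen after the data were seen. The homeobox core TAATTA was present in 19.2% of the windows against 7.12% in the flanks, CATAAA, a core of posterior HOX proteins, in 28.5% against 14.8%, and the E-box CAGCTG in 17.6% against 8.07%. Of all summits, 14.8%, 23.3% and 18.8% held them. AGATAA, the core of GATA factors, was less frequent at the summits than in the flanks, at 9.90% (8.84 to 11.1%) against 12.7% (11.9 to 13.7%). TGACTCA, that of AP-1, was present in 2.53% against 3.65%, with intervals that overlapped slightly (2.005 to 3.19% and 3.18 to 4.18%). Marked intragenic summits held TAATTA in 11.96% of cases (9.56 to 14.9%), below the 19.2% (17.8 to 20.7%) of the unmarked ones, and CAGCTG in 24.1% (20.8 to 27.7%), above their 17.6% (16.2 to 19.05%). They also held ACAAAG, a core of SOX proteins, in 27.9% (24.4 to 31.7%) against 17.0% (15.6 to 18.4%). The flanking windows of the unmarked summits held ACAAAG in 17.8% (16.8 to 18.8%), so that it was not in excess at these summits. Intergenic unmarked summits held TAATTA in 17.3%, CAGCTG in 18.7% and ACAAAG in 17.2% of cases. Their intervals overlapped those of the intragenic unmarked summits for each sequence, so that these contrasts with marked summits were not particular to summits inside genes. In a ranking of the 7-base words by their excess over the flanks, ATCAAAG came first among all intragenic unmarked summits, in 17.1% against 3.98%. In the 1889 without a core, CTCATTA (12.3% against 2.46%) and CATCTGG (13.8% against 3.28%) came first, the former with the letters TAAT on its other strand, which many homeobox proteins bind, and the latter with an E-box. CTCATTA is the word in capitals in the Jazf1 sequence printed above.

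The hosts were then read by gene lists, whose densities are set against 5.74 summits per Mb over all protein-coding genes (a summit in overlapping genes counts for each of them). Summits of the same peak region are counted separately, in the lists and over all genes. The lists are described by counts alone, because the summits share 2 libraries and the lists are short. Of all protein-coding genes with open sequence, 13.9% held a summit. That share was 47.4% for genes with 100 to 200 kb of open sequence and 73.0% for those with more. A high share of genes in a list of long genes is therefore not particular to the list, and the part of length was not tested. Of the 54 genes of the WNT and β-catenin pathway with open sequence, 14 (25.9%) held 35 summits, 14 of them with a core, at 12.1 per Mb. Among secreted antagonists, Dkk2 held 3 summits and Wif1, which sequesters WNT ligands, also 3, of which the strongest (chr10, 121099896) lay in an exon with 39 and 59 fragments in the replicates. The agonist Rspo2 held 1, with 14 and 35 fragments and 3 cores. Among receptors, the co-receptors Lrp5 and Lrp6 held 1 and 2, and the WNT5A receptors Ror1 and Ror2 held 4 and 3, none of these 7 with a core. The share was 30.7% over all intragenic unmarked summits and 21.2% within 1 kb of an H3K27ac peak. So few summits as 7 cannot show a difference from these shares. The strongest in Ror1 (chr4, 100436052) had 31 and 40 fragments and that in Ror2 (chr13, 53201840) 37 and 44. Both lay close to an H3K27ac peak, at 0.01 kb and 0.056 kb, and the others in Ror1 and Ror2 at 0.104 to 14.1 kb. Znrf3, a ubiquitin ligase that removes Frizzled receptors and is itself a WNT target, held 4 summits, all with a core, and the strongest had 44 and 54 fragments. In the nucleus, the co-repressor Tle4 held 5, the strongest (chr19, 14566909) with 30 and 34 fragments, and the TCF/LEF genes Lef1 and Tcf7l2 held 2 each. Prickle1, Tnik and Btrc held 2, 2 and 1.

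The 73 limb bud transcription factors included 37 with open sequence, of which 27 (73.0%) held 78 summits at 17.3 per Mb. Of the 78, 24 (30.8%) had a core, near the 30.7% of all intragenic unmarked summits. Zfhx3 held 10, and Nfia, Tshz2 and Foxp1 held 6 each. The proximal limb gene Meis1 held 4, none with a core, with 25 and 24 fragments over the strongest. Pknox2 also held 4, 2 of them with a core. The T-box genes Tbx15 and Tbx18 held 2 and 1, and the strongest in Tbx15 (chr3, 99278159) had 109 and 130 fragments and a core. Among the Hedgehog pathway genes, 6 of 13 held 13 summits at 14.3 per Mb, comprising the transcription factors Gli2 and Gli3 with 3 each, Hhip, Scube1 and Disp1 with 2 each and the receptor Ptch1 with 1. Of these 13, the 2 in Scube1 had a core. The strongest in Gli3 had 27 and 31 fragments. Of the chondrogenic and skeletal genes, 10 of 22 held 35 summits at 13.7 per Mb, with 9 in Sox6 and 5 in Sox5, which act with Sox9 in cartilage, 6 in Ext1 and 4 in Ext2, which build heparan sulphate, and 4 in Runx2. The strongest in Ext2 had 95 and 123 fragments and 3 cores, the strongest in Ext1 (chr15, 53253296) 67 and 77, and the strongest in Sox6 (chr7, 115984295) 36 and 33.

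In the other signalling lists a single gene held many of the summits. BMP and TGF-β genes held 17 summits in 8 of 34 genes at 8.09 per Mb (5.49 without Bmpr1b), 7 of them in the receptor gene Bmpr1b, where the strongest (chr3, 142099210) had 37 and 50 fragments, and 4 in Ltbp1. FGF pathway genes held 15 in 4 of 15 genes at 7.83 per Mb, but 10 of these fell in the annotated body of Fgfr2. That body spans 2961 kb in this annotation and encloses 29 other protein-coding genes, so that its summits cannot be assigned to Fgfr2. Without Fgfr2 the list held 5 summits in 3 of 14 genes at 11.9 per Mb, next to 12.1 in the WNT list. Of the 5, 2 lay in Fgf10, the mesenchymal ligand that maintains the apical ridge, with 38 and 43 fragments over the stronger (chr13, 118746602). Cell adhesion and polarity genes held 90 in 23 of 34 genes at 9.67 per Mb, with 13 in Pard3b, 9 in Fmn1 and 6 each in Ptprk, Ptprm and Magi1. Genes known to host enhancers of a neighbour had the highest density of any list, 36.7 per Mb, but only 8 genes, and 18 of the 21 summits lay in Fmn1 and in Dync1i1, whose body holds enhancers of the homeobox genes Dlx5 and Dlx6. The strongest in Dync1i1 (chr6, 5803001) had 28 and 45 fragments. Lmbr1, which holds the limb enhancer of Shh in an intron, had 2 summits (chr5, 29315336 and 29315014), with 19 and 20 fragments over the stronger one and no core. Long neuronal genes were below the density over all genes, with 77 summits in 18 of 33 genes at 3.52 per Mb, including 12 in Ntm and 12 in Cntn5. Lists of other cell types of the bud were small in open sequence. Endothelial genes held 5 summits, 2 of them in Tek, in 4 of 11 genes (36.4%) at 7.502 per Mb. Muscle precursor genes held 6 in 2 of 6 genes at 3.31 per Mb, 4 of them in Dmd, without which the density was 5.54, and 2 in Pax3. Ectoderm genes held 1, in Trp63, over 0.219 Mb of open sequence, and blood cell genes 0 over 0.196 Mb, where few summits could be counted at the density over all genes.

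**Figure D4:**
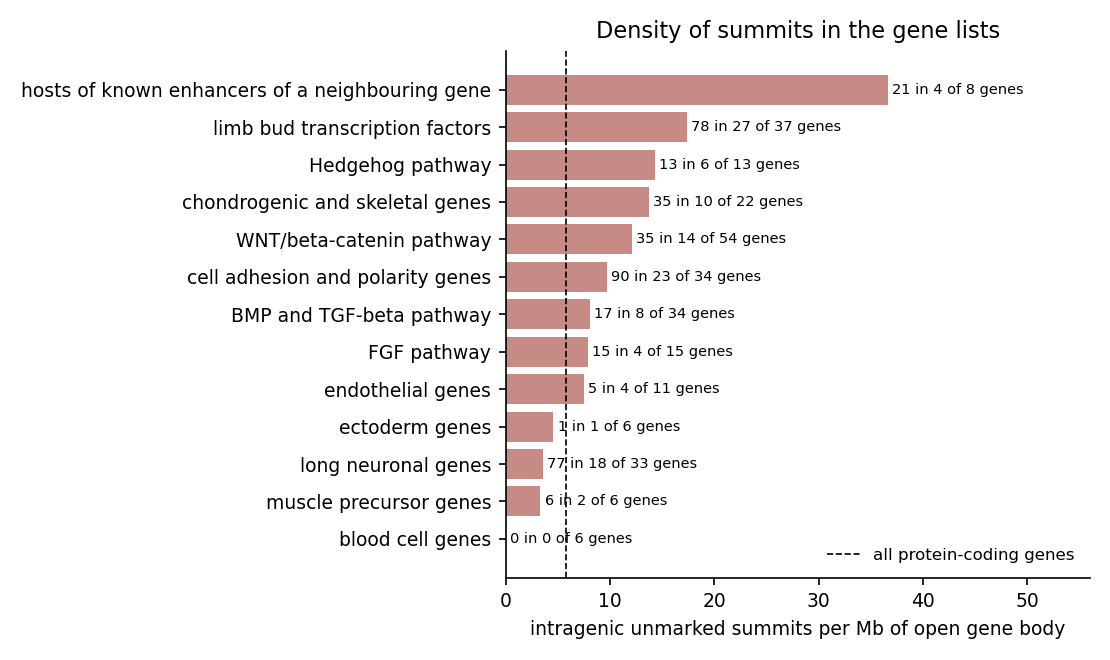
Intragenic unmarked summits per Mb of gene body that meets the distance and H3K27ac limits (horizontal) in each gene list (vertical), with the number of summits and of genes that hold them beside each bar and the value over all protein-coding genes, 5.74, as the dashed line. Limb bud transcription factors reach 17.3 and long neuronal genes 3.52, and the FGF bar includes the long annotated body of Fgfr2, without which it would be 11.9.

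Whether the summits were called after C59 was read from the C59 peak lists, which did not enter the rule. Because the summits were chosen for a call with DMSO, their calls after C59 are compared only with those of other summits chosen the same way. Of the 2726, 14 lay inside a C59 consensus peak (0.514%, 0.306 to 0.860%), against 1.12% of all DMSO summits, 23 inside a peak of C59 replicate 1 (0.844%, against 1.59%) and 35 inside a peak of replicate 2 (1.28%, against 1.79%). Either replicate listed 44 and both listed 14. With the DMSO list of replicate 2 alone as the starting list, the consensus share was 0.325%. Intergenic unmarked summits lay in a C59 consensus peak in 0.555% of cases, and the difference from the intragenic ones of −0.04 percentage points included zero (−0.40 to 0.35). Marked intragenic summits did so in 12 of 577 cases (2.08%), 1.57 points more often (interval of the difference, unmarked minus marked, −3.10 to −0.61). The C59 replicate lists needed more evidence for a call, as their lowest −log10 p was 5.69 and 5.72 against 3.89 and 3.79 with DMSO, and their weakest summits had 11 fragments. The C59 consensus list began at 8.92 and 21 fragments, and the DMSO consensus list at 3.69 and 11. Of the intragenic unmarked summits, 2403 passed the higher replicate limit in both DMSO replicate lists, and all 14 were among them, a share of 0.583% (0.347 to 0.976%). As all 14 passed, this changed only the number they are set against, and it does not level the consensus lists.

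The 14 summits were strong with DMSO, at fold enrichments of 7.96 to 29.7, and had 12 to 26 fragments in each C59 library against 38 to 236 in each DMSO library. The DMSO values were selected for a call by the rule, and the C59 values because the 14 are the summits inside a C59 peak. Both are set side by side as a description, which does not give the C59 level at the other summits. Fragments summed over both C59 replicates were 9.05% to 38.5% of those over both DMSO replicates, with a median of 16.2%. The summit in Jazf1 had 21 and 26 fragments after C59, that in Pik3ap1 15 and 21, and that in Slc14a2, a urea transporter gene, 16 and 24 against 102 and 139 with DMSO. The summit in Stk39, a kinase gene, had 15 and 25 against 154 and 164. Those in Lrmda, Arhgap15, Dner, Mecom, Pcsk5 and Gmds were the next by C59 fold enrichment, followed by Creb5, Cadm1, Auts2 and Ppp1r9a. A core was present in 3 of the 14, in Stk39, Pcsk5 and Gmds, and 9 lay within 1 kb of an H3K27ac peak. Of the 392 summits within 1 kb of such a peak, 2.30% (1.21 to 4.31%) lay in a C59 consensus peak, against 0.214% (0.0915 to 0.501%) of those farther away. The 39 strongest summits, with a fold enrichment of 20 or more, did so in 5 cases (12.8%, 5.60 to 26.7%), and the 2161 below 10 in 2 (0.0925%). At fold enrichments of 10 and above the shares were 6.67% (3.27 to 13.1%) within 1 kb of H3K27ac and 1.09% (0.465 to 2.52%) farther away, so that the intervals were also apart among strong summits.

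**Figure D5:**
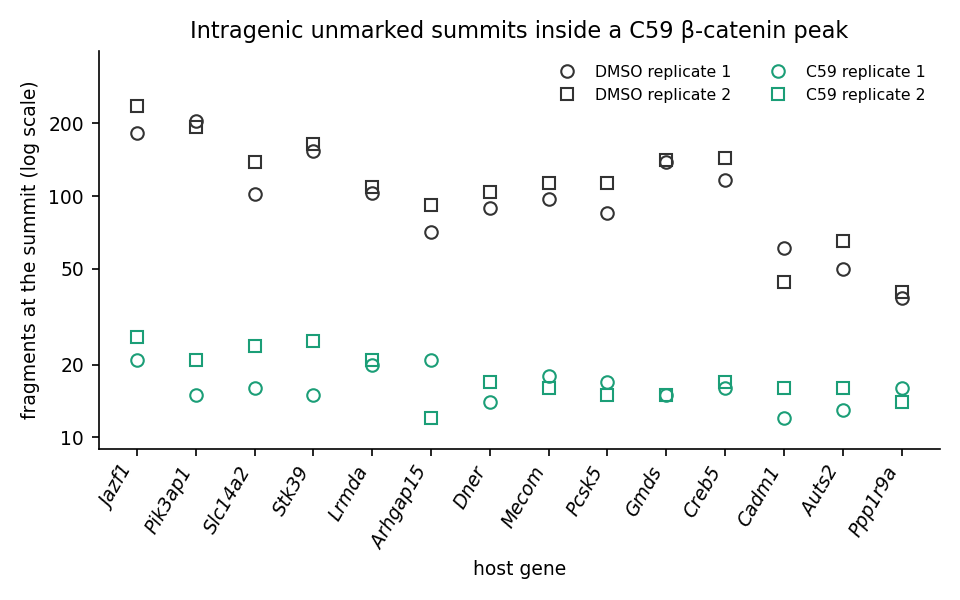
Fragments over the summit (vertical, log scale) in the 2 DMSO and the 2 C59 libraries for the 14 intragenic unmarked summits inside a C59 consensus peak (horizontal, by host gene in the order of their C59 fold enrichment). The C59 values lie between 12 and 26 and the DMSO values between 38 and 236, and the summits were selected for calls in both treatments.

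The consensus lists define the summits as free of H3K27ac in both treatments, so that calls in the replicate lists are those the consensus step did not keep. Of the 2726, 26 (0.954%) lay inside a peak of each H3K27ac DMSO replicate, 47 (1.72%) inside one of C59 replicate 1 and 16 (0.587%) inside one of C59 replicate 2, against 19.2%, 20.1%, 21.4% and 19.1% of all summits. The DMSO values lay between the C59 values. Because the rule used these libraries, the treatments are not compared by a test here. Within 1 kb of a peak, the shares were 17.1% and 18.7% with DMSO and 19.4% and 14.0% with C59. Over all summits they were 38.2%, 40.2%, 39.9% and 36.4%, which include summits inside consensus peaks that the rule removes. Intergenic unmarked summits, which also lie outside those peaks, had 13.1%, 15.2%, 15.6% and 11.9%.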

How the data were processed

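The deposited files are peak lists, 1 for each of 8 β-catenin and H3K27ac libraries and 4 consensus lists. The 4 input samples have no list used here. According to the methods and the submitters' processing notes, the authors trimmed reads with cutadapt (4.1 in the notes), mapped them to mm10 with Bowtie2 2.4.5, called peaks with MACS2 2.2.7.1 without input and, for the consensus lists, called both replicates together after removing duplicates with Picard 2.27.4 and sampling to equal depth, and kept those whose summit both replicate lists covered. Each deposited row holds 3 values of a summit, namely a fold enrichment, a −log10 p-value and a −log10 q-value. The fold enrichment is the ratio of its coverage to that expected from the library, with 1 added to each. Consensus values are the authors' pooled values. The removal of blacklisted regions was not repeated. The calls depend on depth, and absence from a list does not show absence of binding.

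Summits were placed on GRCm38 with GENCODE M21 (all transcripts). Fragments over a summit were solved from fold and −log10 p (up to 250, within 0.01), with all rows tried solved in each list. On simulated data the calculation recovered 3000 of 3000 peaks, and the distance and motif functions all cases. A replicate's value is that of the peak holding the summit. Windows were 200 bp. Shares carry Wilson and differences Newcombe intervals at 95%. The exact permutation test of H3K27ac calls between treatments, although computed, supports nothing, because the rule used those libraries. The numbers of the replicates mark no stated shared litter or batch.

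The summits, lists and tests were chosen with earlier results of these data known. Named were the 10 summits of highest fold, the 10 hosts with most summits (Cntn5 ties) and the summits in C59 consensus peaks. Of the genes in each list that hold summits, and of the summits with most cores, only some are named, as examples. Where the text names other values within a listed gene, these were chosen after they were seen. Each replicate was a pool of buds, called biological by the study. The software was samtools 1.23.1 and Python 3.11.15 with pysam 0.24.0, scipy 1.17.1, pandas 2.3.3, numpy 2.4.6 and, for the plots, matplotlib 3.10.9.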

Additional observations from a re-analysis of the deposited data

How the results depend on the processing

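The number of intragenic unmarked summits was 2726, and 1861 to 3441 under other choices of TSS set, gene set, distance, H3K27ac margin, peak threshold and locus, all within 1.5 times. It was 3348 and 4310 in the lists of single DMSO replicates (replicate 1 and replicate 2). The core share of 30.7% was 22.5% in windows of 100 bp, 39.3% in 400 bp, 36.8% with the 6-base core and 32.8% at a −log10 q of at least 10, and 28.4% to 29.0% in single replicates. Its excess over the flanks was 18.2 points in 100 bp and 23.7 at the q limit, and 19.3 to 19.95 in single replicates. The difference from intergenic summits was −1.30 to −1.11 points and that from marked summits 8.68 to 9.88 in single replicates, and neither left the interval of the main value under any other alternative. The share inside a C59 peak was 1.61% with a peak in either C59 replicate, and 0.325% to 1.28% when a replicate was left out, the highest without C59 replicate 1 and the lowest without DMSO replicate 1. The density ratio was 1.31 at 20 kb or more from a TSS and 1.24 to 1.25 in single replicates. The ratio of median folds to intergenic summits, 0.983, was 0.975 with H3K27ac peaks widened by 1 kb, also 0.975 with 1 summit per locus, and 0.979 to 0.987 in single replicates. The difference in H3K27ac replicate calls (C59 minus DMSO), which the rule bounds and which is only a description, was 0.202 points, and it was −1.17 with peaks widened by 1 kb and −0.367 to 0.770 when a library was left out, turning negative without C59 replicate 1. With a replicate block it was the same 0.202. The cause of these shifts was not tested. The limit of the C59 lists applied to the DMSO lists and the lists without the gene that holds most summits were added after the data were seen. Leaving out that gene moved the density by over 1.5 times for FGF (Fgfr2) and muscle precursor genes (Dmd), and ectoderm genes held 0 without Trp63. With 2 replicates per group, differences between treatments rest on the range of the replicates.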
